A study of Mus musculus with 12 samples.

Results

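BMP and hedgehog signalling was followed in the mouse small intestine through 10 genes chosen by name: the BMP ligands Bmp2 and Bmp4, the receptor Bmpr1a, the intracellular inhibitors Smad6 and Smad7, the BMP target genes Id1, Id2 and Id3, and the hedgehog ligands Ihh and Shh. The choice was made with earlier results of these data known, so counts among these genes are given as a description. All 10 were present, each as 1 transcript, among the 19012 gene symbols of the tables. Poly(A) RNA had been sequenced in 12 libraries from organoids, villi and crypts, each taken from ileum, jejunum and duodenum. Organoids are epithelial cultures grown from crypts; these had been cultured for 12 weeks and gave 1 library per origin. Villi and crypts were freshly isolated, and gave 1 villus library and 2 crypt libraries per origin. Strain, genotype, age, the number of animals and the culture medium are not given in the labels used here. The labels do not say whether the crypt libraries numbered 1 and 2 came from separate animals, so the spread between them may be technical. P-values reflect that spread and, in the main model, how far tissue differences vary between origins, and no known spread between animals.

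BMPs are secreted ligands that bind complexes of type I and type II receptors. The active receptors phosphorylate Smad1 and Smad5, which join Smad4 in the nucleus and raise transcription of the Id genes and, as negative feedback, of Smad6 and Smad7. In the intestine, BMP ligands come largely from the mesenchyme and signalling is stronger along the villus, while antagonists such as Noggin and gremlin are made around the crypt base. Hedgehog ligands run the other way: the epithelium makes Indian hedgehog (Ihh), and mesenchymal cells receive it through Ptch1 and Smo and respond through Gli factors. Media for intestinal organoids commonly contain Noggin; no measurement here bears on the medium.

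Levels were deposited as RPKM, reads divided by exon length and by the reads of the library, so levels of different genes can be compared per length. The values were whole multiples of 1 read, which gave totals between 5268480 and 18591819 reads per library, with 44.3% to 75.8% of them in annotated genes. Tissues were compared with limma on log2(RPKM + 1) in a model of tissue and origin over all 12 libraries, in which the 3 origins stand as the replicates of organoids and villi. Differences are given on this scale, which shrinks those of genes with few reads. A gene counts as called when its two-sided p was under 0.05 after Benjamini-Hochberg adjustment across the whole table of tested genes. In this model 11690 genes passed a filter on low values, 8 of the 10 signalling genes among them; Bmp4 and Shh did not and are given as levels, with their test in a model without the filter.

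The libraries carried the markers of their labelled tissue, with differences that also move with the results below. Summed over 8 enterocyte genes, levels were 5285 to 7301 RPKM in organoids, 47927 to 100060 RPKM in villi and 940 to 23958 RPKM in crypts. Within crypts the same sum was 9049 to 23958 RPKM in the libraries numbered 2 and 940 to 2048 RPKM in those numbered 1. Stem cell markers summed to 514 to 688 RPKM in organoids, 4.73 to 13.7 RPKM in villi and 67.5 to 1134 RPKM in crypts, and cycling cell markers to 42.9 to 53.0 RPKM, 5.85 to 10.4 RPKM and 62.8 to 116 RPKM in the same order. Markers of smooth muscle and leukocytes, cells outside the epithelium, were highest in villi. Smooth muscle genes summed to 0.594 to 1.91 RPKM in organoids, 28.8 to 90.6 RPKM in villi and 1.15 to 9.46 RPKM in crypts, and leukocyte genes to 0.115 to 1.57 RPKM, 56.5 to 93.6 RPKM and 1.15 to 4.47 RPKM. All 6 tested genes of each of these lists were called higher in villi than in crypts. Fibroblast genes summed to 5.03 to 8.04 RPKM in organoids, 4.04 to 9.69 RPKM in villi and 1.31 to 4.03 RPKM in crypts. Of this list, Col1a2, Col3a1, Dcn and Lum were at 0 in every organoid library. Vim, also of this list, made up most of the organoid sum. It stood at 4.87 to 7.77 RPKM in organoids, 2.18 to 4.81 RPKM in villi and 0.463 to 3.06 RPKM in crypts. The part of these cells in any result was not tested, and in bulk RNA fewer cells of a type and less RNA per cell cannot be told apart.

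Organoids were called different from both fresh tissues in Id1, Id3, Smad6, Smad7, Ihh and Bmpr1a, but not in Bmp2 or Id2. Against crypts, 1 of the 8 tested genes was called higher in organoids (Bmpr1a) and 5 lower (Id1, Id3, Smad6, Smad7 and Ihh), while 47.7% of all genes tested were called, 23.4% higher and 24.2% lower. Against villi, the same 6 genes were called in organoids in the same directions, with 62% of all genes called, 36.2% higher and 25.8% lower. Villi against crypts gave 4 higher (Id3, Smad6, Smad7 and Ihh) and 0 lower, with 53.4% of all genes called, 20.5% higher and 32.8% lower. Organoids and villi were each set against the same crypts, so these comparisons share samples. The median log2 fold change of the 8 genes was -1.36 for organoids over crypts, -2.05 for organoids over villi and 0.67 for villi over crypts, beside medians of 0.00, 0.22 and -0.20 over all genes tested. Rescaling to reads in annotated genes moved the median of all genes for villi over crypts to -0.43 and for organoids over crypts to -0.17, and scaling with TMM factors moved those for villi over crypts to -0.02 and for organoids over villi to 0.03. Among the genes called in villi against crypts, 2402 of 6237 were higher as deposited, 1804 of 6833 after the first rescaling and 3442 of 6655 with TMM factors. Among those called in organoids against crypts, 2741 of 5572 were higher as deposited and 2098 of 5686 after rescaling to reads in annotated genes.

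**Figure D1:**
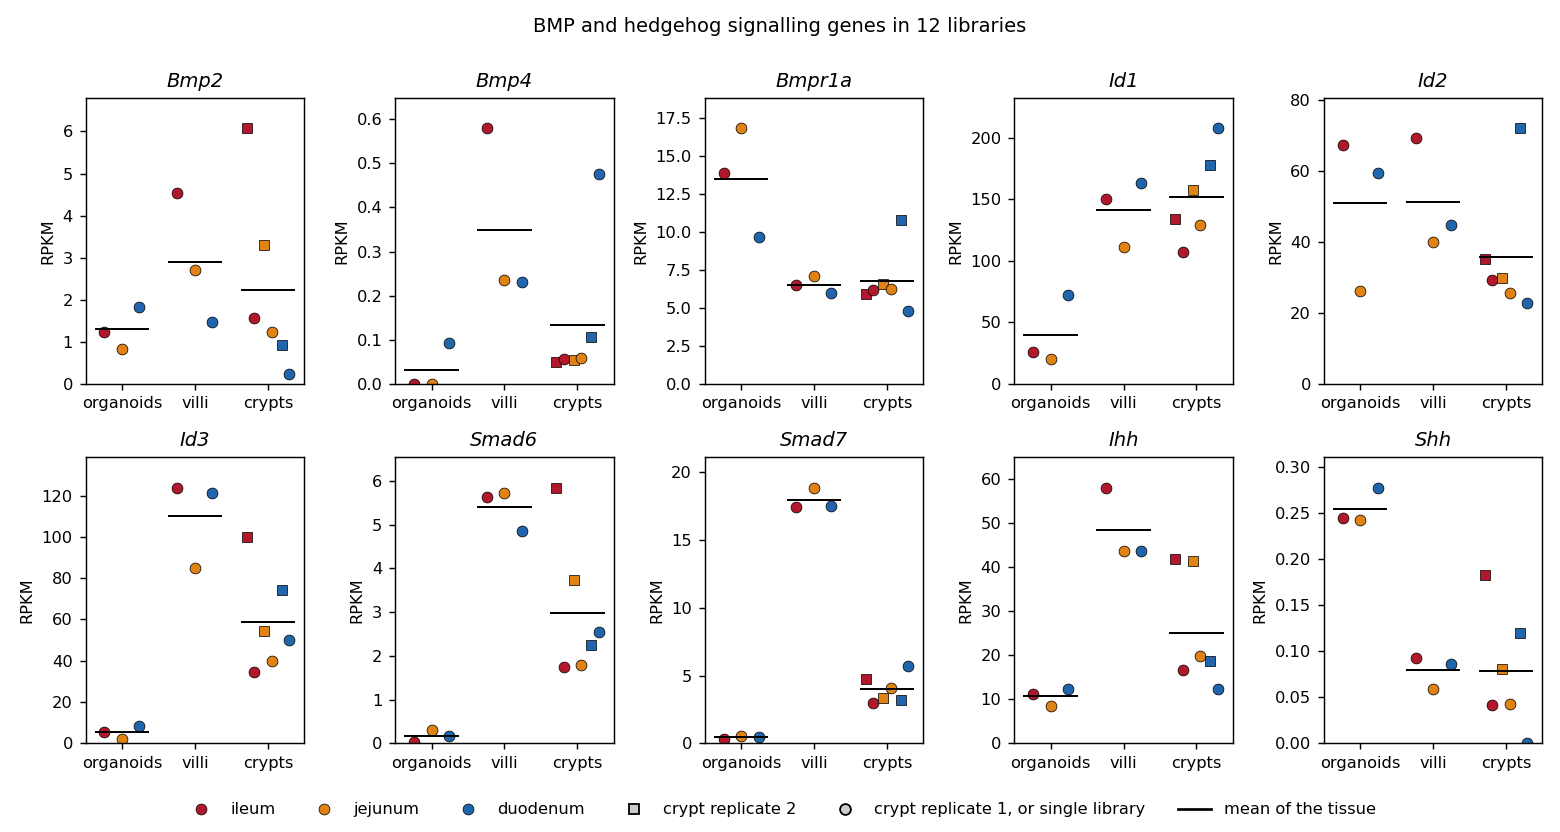
RPKM (linear axes from 0) of the 10 genes in organoids, villi and crypts; each point is 1 library, coloured by origin, squares are crypt libraries numbered 2, and the black line is the mean of the tissue. Id3, Smad6 and Smad7 are lowest in the 3 organoid libraries, and Smad7 is at 17.4 to 18.8 RPKM in villi against 2.996 to 5.73 RPKM in crypts.

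The Id genes encode helix-loop-helix proteins that lack a DNA-binding region and block the factors they pair with. Promoter windows from RefSeq (build GRCm38.p6, 250 bases before to 50 after the start of the gene) were used for 6 of the 10 genes. These were Bmp4, Bmpr1a, Id2, Id3, Smad6 and Ihh. Smad7 was left out of the search, and no window was available for Bmp2, Id1 and Shh. The 6 windows were searched for GGCGCC and GTCTAGAC, motifs that Smad proteins can bind and that read the same on both strands. Of 32851 promoter windows of this length, 11.9% hold GGCGCC and 0.213% hold GTCTAGAC. The windows of 4 genes are shown, those of the called genes Id3, Smad6 and Bmpr1a beside that of Id2, which was not called between tissues. The windows of Ihh, also a called gene, and of Bmp4 hold neither motif and are not shown. Capitals mark a motif.
Id3 chr4:136143572-136143871, plus strand: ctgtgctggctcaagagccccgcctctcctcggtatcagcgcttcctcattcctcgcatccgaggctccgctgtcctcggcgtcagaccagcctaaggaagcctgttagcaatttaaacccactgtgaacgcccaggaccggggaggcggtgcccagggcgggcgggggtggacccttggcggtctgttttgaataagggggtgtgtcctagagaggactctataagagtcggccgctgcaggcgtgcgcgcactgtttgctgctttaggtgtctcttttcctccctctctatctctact
Smad6 chr9:64022010-64022309, minus strand: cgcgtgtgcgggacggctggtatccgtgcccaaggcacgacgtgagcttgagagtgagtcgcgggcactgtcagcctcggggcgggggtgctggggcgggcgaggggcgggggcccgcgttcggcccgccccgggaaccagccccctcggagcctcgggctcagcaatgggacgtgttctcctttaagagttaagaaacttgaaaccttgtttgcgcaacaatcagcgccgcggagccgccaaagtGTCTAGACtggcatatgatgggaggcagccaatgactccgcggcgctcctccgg
Id2 chr12:25096043-25096342, minus strand: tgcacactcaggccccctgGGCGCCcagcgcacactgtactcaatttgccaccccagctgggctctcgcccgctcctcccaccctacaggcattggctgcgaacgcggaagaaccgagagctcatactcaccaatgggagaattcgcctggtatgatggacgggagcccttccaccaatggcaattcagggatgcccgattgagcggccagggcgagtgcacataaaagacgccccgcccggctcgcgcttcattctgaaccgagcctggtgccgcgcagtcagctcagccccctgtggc
Bmpr1a chr14:34502497-34502796, minus strand: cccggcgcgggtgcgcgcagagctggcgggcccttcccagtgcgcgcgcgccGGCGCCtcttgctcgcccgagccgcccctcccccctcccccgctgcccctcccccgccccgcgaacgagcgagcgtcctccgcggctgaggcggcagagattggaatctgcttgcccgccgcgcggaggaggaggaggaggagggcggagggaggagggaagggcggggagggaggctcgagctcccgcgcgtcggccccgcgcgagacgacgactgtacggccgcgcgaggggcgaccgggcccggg
Among the 6 windows, GGCGCC stands in those of Id2 and Bmpr1a, and GTCTAGAC stands in that of Smad6. No match says only that these letters are not in this window.

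Id3 (NM_008321, mm9 chromosome 4, 135699736 to 135701306, plus strand) had the widest spread between groups of the 8 tested genes. It stood at 5.63, 2.20 and 8.33 RPKM in organoids of ileum, jejunum and duodenum, at 124, 85.1 and 121 RPKM in villi of those origins, and between 34.7 and 100.1 RPKM in the 6 crypt libraries, with a median of 52.1 RPKM. Every organoid library was below every crypt and villus library, as held for 22% of all tested genes against crypts and 29.5% against villi, while villi and crypts overlapped. Id3 was lower in organoids than in crypts by -3.27 ± 0.34 (log2, SE; limma adjusted p = 1.88e-05), and lower than in villi by -4.23 ± 0.39 (limma adjusted p = 3.37e-06). Both calls held under each of 21 alternatives, which include leaving out each library in turn. Villi were higher than crypts by 0.96 ± 0.34 (limma adjusted p = 0.0273), a call lost without the villus library of duodenum (adjusted p = 0.0647), jejunum (0.105) or ileum (0.0923), after rescaling to reads in annotated genes (0.0614), and against the crypt libraries numbered 2 alone (0.103).

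Id1 (NM_010495, mm9 chromosome 2, 152562009 to 152563145, plus strand) was the most abundant of the 10 genes in fresh tissue. Its levels were 26.0, 20.1 and 72.3 RPKM in organoids of ileum, jejunum and duodenum, 150 RPKM, 111 RPKM and 163 RPKM in villi, and 107 to 208 RPKM in crypts, with a median of 145 RPKM. Every organoid library was below every villus and crypt library, as held for 29.5% of all tested genes against villi and 22% against crypts. Villi lay within the crypt range. Id1 was lower in organoids than in crypts by -2.11 ± 0.30 (log2, SE; limma adjusted p = 0.000147) and lower than in villi by -2.02 ± 0.35 (limma adjusted p = 0.000251), under each alternative. Villi over crypts gave -0.09 with a 95% interval of -0.73 to 0.56 (limma adjusted p = 0.822), and the sign of that value turned with the scaling.

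Id2 (NM_010496, mm9 chromosome 12, 25778663 to 25780956, minus strand) kept no such order. It stood at 67.3, 26.0 and 59.5 RPKM in organoids of ileum, jejunum and duodenum, at 69.1, 39.9 and 44.7 RPKM in villi, and between 22.7 and 71.9 RPKM in crypts, with a median of 29.5 RPKM. All 3 tissues overlapped. The log2 difference was 0.50 for organoids over crypts (95% interval -0.24 to 1.25, limma adjusted p = 0.247) and 0.58 for villi over crypts (-0.17 to 1.33, limma adjusted p = 0.172). The highest crypt value was that of duodenum numbered 2, and without this library both differences were called, at 0.73 (limma adjusted p = 0.0377) for organoids and 0.81 (limma adjusted p = 0.0235) for villi. The villus difference was also called with TMM factors (limma adjusted p = 0.0165), by limma-voom on the recovered reads (0.0141) and against the crypt libraries numbered 1 alone (0.0106); the organoid difference was called against the crypt libraries numbered 1 alone (0.0183).

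Of the BMP target list of 8 genes, 5 were tested, with 0 called higher and 3 lower in organoids against crypts, and 1 higher and 1 lower in villi. Over all tested genes the shares were 23.4% higher and 24.2% lower in organoids and 20.5% and 32.8% in villi, and the counts of each list below stand beside these shares. Outside the Id genes above, Atoh8, a helix-loop-helix factor, stood at 1.90 to 2.37 RPKM in organoids, 0.162 to 0.245 RPKM in villi and 0.735 to 2.75 RPKM in crypts, and was lower in villi than in crypts by -1.06 ± 0.22 (log2, SE; limma adjusted p = 0.00162). Its level in villi lay below that in both other tissues. Villi lay below every crypt library in 31.9% of all tested genes and below every organoid library in 41.3%. Id3, by contrast, was called higher in villi. Id4 reached at most 0.219 RPKM in organoids, 0.845 RPKM in villi and 1.28 RPKM in crypts. It was called lower in organoids (-0.56 ± 0.18, limma adjusted p = 0.0218), a call lost without the organoid library of duodenum (adjusted p = 0.0647) or ileum (0.145).

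Smad7 (NM_001042660, mm9 chromosome 18, 75527018 to 75555587, plus strand), which blocks BMP and TGF-beta receptors and recruits Smurf ubiquitin ligases to them, separated the 3 tissues. Levels were 0.327, 0.569 and 0.478 RPKM in organoids of ileum, jejunum and duodenum, 17.4, 18.8 and 17.5 RPKM in villi, and 2.996 to 5.73 RPKM in crypts, with a median of 3.73 RPKM. No library of any tissue overlapped those of another. Of all tested genes, 22% had organoids below every crypt library, 29.5% had organoids below every villus library, and 16.7% had villi above every crypt library. Villi spanned the narrowest range of Smad7 relative to their mean. Means were 0.458 ± 0.122 RPKM in organoids and 17.9 ± 0.801 RPKM in villi (SD, n = 3 each), beside 4.02 ± 1.05 RPKM in crypts (SD, n = 6). Organoids were lower than crypts by -1.76 ± 0.23 (log2, SE; limma adjusted p = 7.04e-05) and lower than villi by -3.70 ± 0.26 (limma adjusted p = 1.03e-06). Villi were higher than crypts by 1.94 ± 0.23 (limma adjusted p = 2.29e-05), and all 3 calls held under each alternative, with 1.60 as the smallest villus difference.

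Smad6 (NM_008542, mm9 chromosome 9, 63800949 to 63869127, minus strand), an inhibitor that acts mainly on BMP receptors and Smad1, was lowest in organoids. It stood at 0.0335, 0.298 and 0.171 RPKM in organoids of ileum, jejunum and duodenum, from 1, 12 and 4 reads. Villi held 5.64, 5.73 and 4.87 RPKM, and crypts 1.75 to 5.84 RPKM with a median of 2.40 RPKM. Organoids lay below every other library, as held for 22% of all tested genes against crypts and 29.5% against villi. Villi overlapped the crypt library of ileum numbered 2. Organoids were lower than crypts by -1.70 ± 0.28 (log2, SE; limma adjusted p = 0.000362) and lower than villi by -2.46 ± 0.32 (limma adjusted p = 3.18e-05), under each alternative. The difference of villi over crypts, 0.76 ± 0.28 (limma adjusted p = 0.0331), was called less firmly. It was lost without the villus library of duodenum (adjusted p = 0.0943), jejunum (0.108) or ileum (0.0883), without the crypt library numbered 1 of jejunum (0.0720) or ileum (0.0690), with a pseudocount of 0.1 (0.0767), with no filter (0.0663), after rescaling to reads in annotated genes (0.134), and against crypt libraries numbered 2 alone (0.209).

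The list of 10 Smad transducers and inhibitors had 9 tested genes, with 1 higher and 5 lower in organoids against crypts and 3 higher and 0 lower in villi. Without Smad6 and Smad7, 7 were tested, with 1 higher and 3 lower in organoids and 1 higher in villi; with the replicate block Smurf2, a ubiquitin ligase, was also called higher in villi (limma adjusted p = 0.0472, against 0.0623 without it). Skil, a repressor of Smad-driven transcription, stood at 1.60 to 2.17 RPKM in organoids, 9.57 to 11.3 RPKM in villi and 1.05 to 2.48 RPKM in crypts. It was higher in villi than in crypts by 2.01 ± 0.21 (log2, SE; limma adjusted p = 1.14e-05) and had 0.06 ± 0.21 in organoids over crypts (limma adjusted p = 0.839). Its relative Ski stood at 2.23 to 4.13 RPKM in organoids, 7.85 to 13.5 RPKM in villi and 6.65 to 11.3 RPKM in crypts, and was lower in organoids than in crypts by -1.25 ± 0.26 (limma adjusted p = 0.00173). Smurf1, a ubiquitin ligase of BMP Smads and receptors, stood at 0.883 to 1.66 RPKM in organoids, 3.15 to 4.56 RPKM in villi and 2.21 to 3.19 RPKM in crypts. It was lower in organoids than in crypts by -0.73 ± 0.19 (limma adjusted p = 0.00706), a call lost without the organoid library of ileum (adjusted p = 0.0639).

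**Figure D2:**
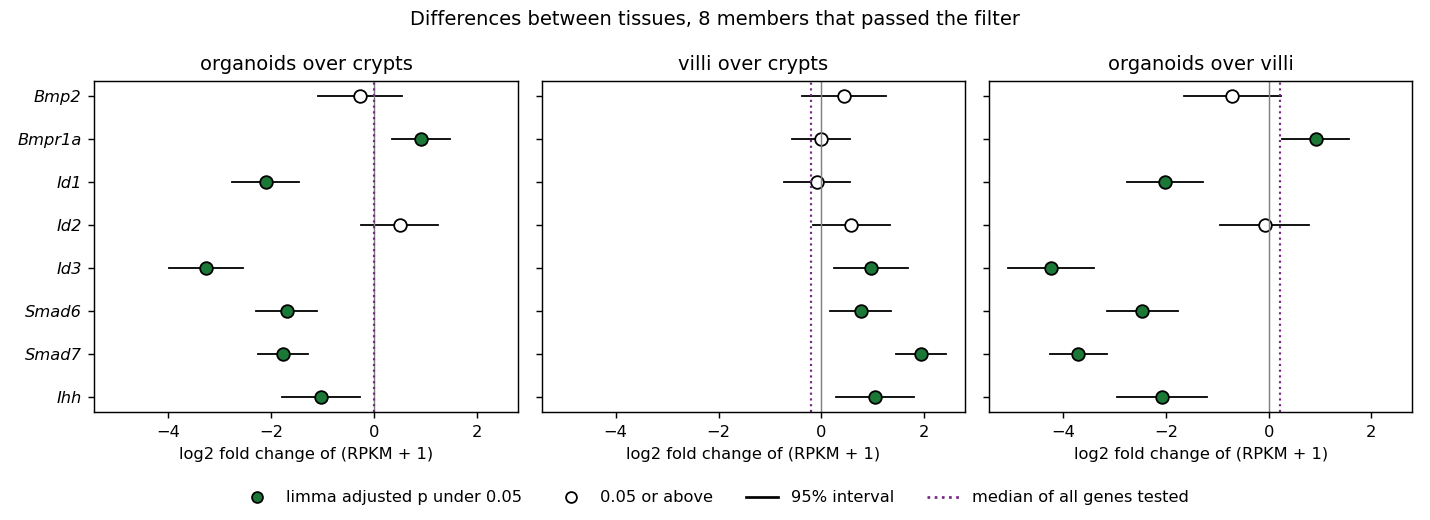
Log2 fold change of (RPKM + 1) for organoids over crypts, villi over crypts and organoids over villi in the 8 genes that passed the filter; points are limma estimates, lines their 95% intervals, filled points have an adjusted p under 0.05, and the dotted line is the median of all genes tested. Id1, Id3, Smad6, Smad7 and Ihh lie left of 0 in both organoid panels, and Smad7 at 1.94 is the farthest right for villi over crypts.

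Bmpr1a (NM_009758, mm9 chromosome 14, 35224253 to 35315731, minus strand), a type I BMP receptor, was the one gene of the 8 past the filter that was called higher in organoids. It stood at 13.9, 16.8 and 9.69 RPKM in organoids of ileum, jejunum and duodenum, at 6.49, 7.08 and 5.95 RPKM in villi, and between 4.81 and 10.8 RPKM in crypts, with a median of 6.20 RPKM. Organoids lay above villi, as held for 41.3% of all tested genes, and overlapped crypts through the crypt library of duodenum numbered 2. Organoids over crypts gave 0.91 ± 0.26 (log2, SE; limma adjusted p = 0.0122), and organoids over villi 0.92 ± 0.30 (limma adjusted p = 0.0174). The call against crypts was lost without the organoid library of jejunum (adjusted p = 0.0777) or ileum (0.0746) and against crypt libraries numbered 2 alone (0.0605). The call against villi was lost without the organoid library of jejunum (adjusted p = 0.0823) or ileum (0.0694) and without the villus library of duodenum (0.0554) or jejunum (0.0540). Villi over crypts gave -0.01 with a 95% interval of -0.57 to 0.55 (limma adjusted p = 0.974), and its sign turned with the scaling.

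Of 11 receptor and coreceptor genes, 10 were matched and 8 tested; beside Bmpr1a none was higher in organoids than in crypts and 2 were lower, and 2 were higher and 2 lower in villi. With the crypt replicate numbers as a block, Bmpr2 and Acvr2a, both type II receptors, were also called higher in organoids than in crypts (limma adjusted p = 0.0403 and 0.0405, against 0.104 and 0.0957 without the block). Acvr2b, a type II receptor for activins and BMPs, stood at 1.62 to 2.497 RPKM in organoids, 2.60 to 2.89 RPKM in villi and 7.73 to 49.3 RPKM in crypts. Crypts lay above both other tissues, and Acvr2b was lower in organoids by -2.42 ± 0.49 (log2, SE; limma adjusted p = 0.00142) and in villi by -2.10 ± 0.49 (limma adjusted p = 0.00289). Every crypt library stood above the organoid libraries in 22% of all tested genes and above the villus libraries in 31.9%. The crypt values of Acvr2b split by number, at 17.2 to 49.3 RPKM in libraries numbered 1 and 7.73 to 8.12 RPKM in those numbered 2. Over the alternatives the difference ran from -3.27 to -1.57 in organoids and from -2.95 to -1.25 in villi, with both calls kept. Rgmb, a membrane-anchored BMP coreceptor, stood at 11.6 to 16.9 RPKM in organoids, 2.64 to 4.17 RPKM in villi and 7.26 to 16.9 RPKM in crypts, and was lower in villi than in crypts by -1.45 ± 0.30 (limma adjusted p = 0.00140). Acvr1, another type I receptor, stood at 0.748 to 1.17 RPKM in organoids, 3.15 to 3.85 RPKM in villi and 1.32 to 2.86 RPKM in crypts. It was higher in villi (0.66 ± 0.20, limma adjusted p = 0.0138) except without the villus library of ileum (adjusted p = 0.0983), after rescaling to reads in annotated genes (0.0970) and against crypt libraries numbered 2 alone (0.130). It was called lower in organoids (-0.53 ± 0.20, limma adjusted p = 0.0429), a call lost on leaving out any of 6 libraries (adjusted p of 0.0514 to 0.179). These were the crypt libraries of jejunum numbered 2 and of ileum numbered 1 and 2, the organoid libraries of duodenum and ileum, and the villus library of jejunum; 3 of 9 other alternatives also lost it.

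Bmp2 (NM_007553, mm9 chromosome 2, 133378934 to 133388620, plus strand) varied more between origins and crypt libraries than between tissues. It stood at 1.24, 0.834 and 1.84 RPKM in organoids of ileum, jejunum and duodenum, at 4.53, 2.70 and 1.46 RPKM in villi, and between 0.226 and 6.07 RPKM in crypts, with a median of 1.39 RPKM. The crypt range held all organoid and villus libraries. Bmp2 was not called for organoids over crypts (-0.27, 95% interval -1.08 to 0.55, limma adjusted p = 0.583) or for villi over crypts (0.44, -0.38 to 1.25, limma adjusted p = 0.345). Against the crypt libraries numbered 1 alone, villi were called higher, at 0.95 (limma adjusted p = 0.0128). For organoids over villi (-0.70, -1.64 to 0.24, limma adjusted p = 0.177), a call appeared without the organoid library of duodenum (-1.24, adjusted p = 0.0271), by limma-voom (0.0228) and with the crypt libraries numbered 1 alone in the model (0.0444).

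Bmp4 (NM_007554, mm9 chromosome 14, 47003195 to 47010273, minus strand), made in vivo mainly by mesenchymal cells, was near the limit of detection throughout. Organoids held 0, 0 and 2 reads in ileum, jejunum and duodenum, where a count of 0 allows up to 0.109 RPKM in ileum and 0.0810 RPKM in jejunum, counting error only. Villi held 14, 6 and 6 reads, or 0.580, 0.235 and 0.230 RPKM, and crypts 1 to 5 reads, or 0.0488 to 0.476 RPKM with a median of 0.0568 RPKM. Villi and crypts overlapped through the crypt library of duodenum numbered 1. In the model without the filter, over 16112 genes, Bmp4 was called lower in organoids than in villi (-0.38 ± 0.13, log2, SE; limma adjusted p = 0.0360), where 21% of all genes were called lower, on these few reads. It was not called for organoids over crypts (-0.13 ± 0.11, limma adjusted p = 0.441) or villi over crypts (0.25 ± 0.11, limma adjusted p = 0.104). Villi also held the highest smooth muscle and leukocyte sums given above.

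Of 14 BMP ligand genes, all were matched and 5 tested, with 2 higher and 0 lower in organoids against crypts, and 2 higher and 2 lower in villi. Bmp8b stood at 0.293 to 0.974 RPKM in organoids, 2.95 to 5.02 RPKM in villi and 0 to 0.266 RPKM in crypts, and was higher in villi than in crypts by 2.05 ± 0.16 (log2, SE; limma adjusted p = 2.13e-06). Its call in organoids (0.48 ± 0.16, limma adjusted p = 0.0225) was lost without the organoid library of duodenum (adjusted p = 0.171) and against crypt libraries numbered 2 alone (0.111). Its close paralog Bmp8a stood at 0.0380 to 0.386 RPKM in organoids, 5.27 to 14.8 RPKM in villi and 0.277 to 0.967 RPKM in crypts, with 2.74 ± 0.26 in villi over crypts (limma adjusted p = 6.66e-06). Reads of these paralogs may be split uncertainly between them. Bmp7 stood at 4.87 to 6.95 RPKM in organoids, 0.0777 to 1.30 RPKM in villi and 3.57 to 10.1 RPKM in crypts, and was lower in villi by -2.10 ± 0.29 (limma adjusted p = 7.25e-05). Bmp3, named here after its values were seen, was the most abundant ligand of the list in organoids. It stood at 49.1, 53.9 and 42.6 RPKM in organoids of ileum, jejunum and duodenum, at 0.201 to 6.15 RPKM in villi and at 3.89 to 8.54 RPKM in crypts, and was higher in organoids than in crypts by 2.72 ± 0.40 (limma adjusted p = 0.000184). Its call below crypts in villi (-1.11 ± 0.40, limma adjusted p = 0.0311) was lost without the duodenal villus library (-0.33, adjusted p = 0.379) or without the duodenal crypt library numbered 2 (0.0578) or 1 (0.0525), and under 4 of 9 other alternatives. BMP3 is known as an atypical member that opposes other BMPs. Enteroendocrine cell markers also summed to 685 to 2228 RPKM in organoids, 64.1 to 153 RPKM in villi and 41.8 to 160 RPKM in crypts. In organoids, Gcg and Cck made up most of this sum. Of the 5 genes, 4 were called higher in organoids than in crypts, beside 23.4% of all tested genes. Chga, the other gene, stood at 15.1 to 21.5 RPKM in organoids, 28.1 to 49.2 RPKM in villi and 11.5 to 37.7 RPKM in crypts. Goblet cell markers summed to 8178 to 18715 RPKM in organoids, 4271 to 9595 RPKM in villi and 1713 to 9625 RPKM in crypts. The part of either cell type in the Bmp3 result was not tested.

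Of 14 BMP antagonist genes, all were matched and 4 tested, with 0 higher and 1 lower in organoids against crypts, and 2 higher and 1 lower in villi. Transcripts of Noggin (Nog) reached at most 0.0813 RPKM in villi and were listed at 0 in all organoid and crypt libraries, as was gremlin (Grem1), which reached 0.286 RPKM in villi. Crim1, a membrane protein that binds BMPs, stood at 1.004 to 2.34 RPKM in organoids, 9.34 to 13.3 RPKM in villi and 1.64 to 2.77 RPKM in crypts, and was higher in villi than in crypts by 1.90 ± 0.22 (log2, SE; limma adjusted p = 1.96e-05). Bambi, a pseudoreceptor that dampens BMP and TGF-beta signals, stood at 1.81 to 3.35 RPKM in organoids, 0.227 to 0.393 RPKM in villi and 0.946 to 4.37 RPKM in crypts, and was lower in villi by -1.05 ± 0.27 (limma adjusted p = 0.00572). Nbl1, a secreted antagonist, stood at 0.885 to 1.31 RPKM in organoids, 11.5 to 148 RPKM in villi and 1.99 to 86.1 RPKM in crypts. It was lower in organoids than in crypts by -2.44 ± 0.63 (limma adjusted p = 0.00662) except without the organoid library of ileum (adjusted p = 0.0843). It was called higher in villi (1.73 ± 0.63, limma adjusted p = 0.0332), a call lost on leaving out any of the 3 villus libraries, or the crypt libraries of duodenum numbered 2, jejunum numbered 1 or ileum numbered 1 (adjusted p of 0.0552 to 0.189), and under 3 of 9 other alternatives.

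**Figure D3:**
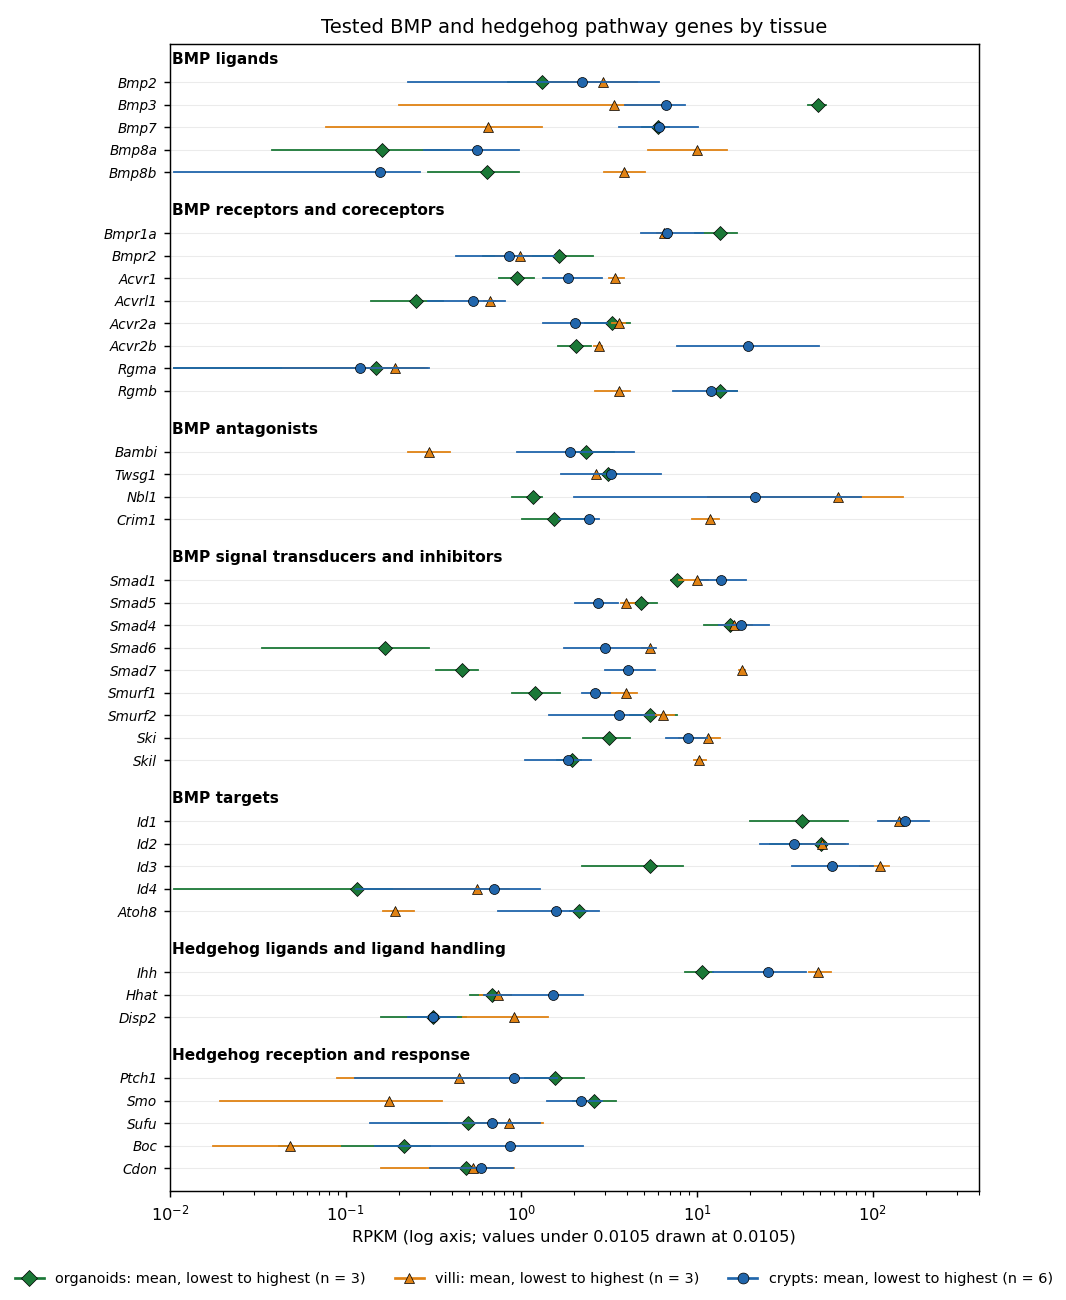
RPKM (log axis) of the 39 tested genes of the BMP and hedgehog lists; markers are tissue means and lines run from the lowest to the highest library, for organoids (diamonds, n = 3), villi (triangles, n = 3) and crypts (circles, n = 6). Bmp8a, Bmp8b, Crim1, Skil and Smad7 are highest in villi, Bmp7, Bambi, Atoh8 and Smo are lowest there, and Bmp3 is highest in organoids.

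Ihh (NM_010544, mm9 chromosome 1, 74991891 to 74998224, minus strand), the main hedgehog ligand of the intestinal epithelium, was highest in villi and lowest in organoids. It stood at 11.3, 8.495 and 12.4 RPKM in organoids of ileum, jejunum and duodenum, at 58.1, 43.6 and 43.7 RPKM in villi, and between 12.3 and 41.9 RPKM in crypts, with a median of 19.3 RPKM. Villi lay above every crypt library, which held for 16.7% of all tested genes; 31.9% lay below in villi, with none of the 10 genes among them. Organoids overlapped crypts at the duodenal library numbered 1, where the organoid and crypt values were 12.4 and 12.3 RPKM. Ihh was lower in organoids than in villi by -2.08 ± 0.41 (log2, SE; limma adjusted p = 0.000662), under each alternative. Villi were higher than crypts by 1.05 ± 0.35 (limma adjusted p = 0.0231), a call lost without the villus library of duodenum (adjusted p = 0.0993) or ileum (0.0855) and against crypt libraries numbered 2 alone (0.125). The call for organoids below crypts (-1.03 ± 0.35, limma adjusted p = 0.0281) was lost without the crypt libraries numbered 2 of jejunum (adjusted p = 0.0521) or ileum (0.0547), without the organoid libraries of jejunum (0.164) or ileum (0.123), with no filter (0.0538), and against crypt libraries numbered 1 alone (0.0717).

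Shh (NM_009170, mm9 chromosome 5, 28783379 to 28793640, minus strand), the Sonic hedgehog ligand, stayed below 0.3 RPKM in every library. Organoids held 9, 12 and 8 reads in ileum, jejunum and duodenum, or 0.245, 0.242 and 0.277 RPKM. Villi held 3, 2 and 3 reads, or 0.0928, 0.0586 and 0.0859 RPKM, and crypts 0 to 5 reads, or 0 to 0.182 RPKM with a median of 0.0620 RPKM. A count of 0 in the duodenal crypt library numbered 1 allows up to 0.214 RPKM. The organoid libraries lay above all others, as did 16.4% of tested genes against crypts and 41.3% against villi, but these counts were too low for the filter. In the model without it, over 16112 genes, Shh was called higher in organoids than in crypts (0.22 ± 0.05, log2, SE; limma adjusted p = 0.00658) and than in villi (0.22 ± 0.06, limma adjusted p = 0.00914), where 16.8% and 26.8% of all genes were called higher. These calls rest on at most 12 reads in a library. Ihh exceeded Shh in every library, so that in organoids mean levels were 10.7 ± 2.01 RPKM for Ihh and 0.255 ± 0.0194 RPKM for Shh (SD, n = 3).

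Genes that handle or receive hedgehog ligands were low in all tissues. Of the list of 7 ligand and ligand-handling genes, 6 were matched and 3 tested, with 0 higher and 2 lower in organoids against crypts, and 2 higher and 1 lower in villi. Disp2, related to the transporter that releases hedgehog ligands, stood at 0.158 to 0.485 RPKM in organoids, 0.463 to 1.42 RPKM in villi and 0.226 to 0.424 RPKM in crypts. It was higher in villi than in crypts by 0.51 ± 0.14 (log2, SE; limma adjusted p = 0.00965) except without the villus library of ileum (adjusted p = 0.115) and after rescaling to reads in annotated genes (0.0523). Hhat, which palmitoylates hedgehog ligands, stood at 0.510 to 0.875 RPKM in organoids, 0.579 to 0.876 RPKM in villi and 0.615 to 2.23 RPKM in crypts. It was called lower in organoids (-0.55 ± 0.19, limma adjusted p = 0.0274) and in villi (-0.50 ± 0.19, limma adjusted p = 0.0358) than in crypts. The organoid call was lost without any of the 3 organoid libraries or without the crypt libraries numbered 1 of jejunum or ileum (adjusted p of 0.0525 to 0.117), and under 2 of 9 other alternatives. The villus call was lost without the villus libraries of duodenum or ileum or without the crypt libraries of duodenum, or those numbered 1 of jejunum or ileum (adjusted p of 0.0501 to 0.275), and under 5 of 9 other alternatives.

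Of 16 reception and response genes, 15 were matched and 5 tested, with 0 higher and 1 lower in organoids against crypts, and 0 higher and 2 lower in villi. Smo, the membrane protein that passes the hedgehog signal into the cell, stood at 1.96 to 3.47 RPKM in organoids, 0.0193 to 0.354 RPKM in villi and 1.399 to 2.86 RPKM in crypts, and was lower in villi than in crypts by -1.43 ± 0.21 (log2, SE; limma adjusted p = 0.000136). Boc, a hedgehog coreceptor, stood at 0.0417 to 0.304 RPKM in organoids, 0.0176 to 0.0932 RPKM in villi and 0.146 to 2.25 RPKM in crypts. It was lower in villi than in crypts by -0.75 ± 0.21 (limma adjusted p = 0.00822) except without the villus library of ileum (adjusted p = 0.0718). Its call in organoids (-0.55 ± 0.21, limma adjusted p = 0.0433) was lost on leaving out any of 7 libraries, namely the crypt library numbered 1 of each origin, the organoid libraries of duodenum and ileum, and the villus libraries of duodenum and jejunum (adjusted p of 0.0543 to 0.227), and under 3 of 9 other alternatives. Gli1, a transcription factor induced by hedgehog signals in receiving cells, was not tested; it reached 0.0147 RPKM in organoids, 0.188 RPKM in villi and 0.0611 RPKM in crypts. Over all 7 lists, 77 of 80 genes were matched and 39 tested, with 4 higher and 14 lower in organoids against crypts, beside 23.4% and 24.2% of all tested genes, and 12 higher and 9 lower in villi, beside 20.5% and 32.8%. Without the 8 tested genes of the 10, 31 remained, with 3 higher and 9 lower in organoids and 8 higher and 9 lower in villi.

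The crypt libraries numbered 2 and 1 differed in several of the genes. In ileum, Ihh stood at 41.9 RPKM in the library numbered 2 and at 16.7 RPKM in that numbered 1, in jejunum at 41.5 and 19.8 RPKM, and in duodenum at 18.8 and 12.3 RPKM. Bmp2 stood at 6.07 and 1.56 RPKM in ileum, at 3.31 and 1.23 RPKM in jejunum, and at 0.928 and 0.226 RPKM in duodenum, with number 2 given first. Id3 stood at 100.1 and 34.7 RPKM in ileum, at 54.2 and 39.7 RPKM in jejunum, and at 74.5 and 50.0 RPKM in duodenum in that order. These 3 genes were higher in number 2 at each origin, as was the enterocyte sum. So was Id2, at 35.0 and 29.3 RPKM in ileum, 29.7 and 25.5 RPKM in jejunum, and 71.9 and 22.7 RPKM in duodenum. Ihh and Id3 were called higher in villi than in crypts, calls lost against the crypt libraries numbered 2 alone. Bmp2 and Id2 were not called in villi against crypts. Smad7, by contrast, was higher in number 2 in ileum (4.73 against 2.996 RPKM) and lower in jejunum (3.36 against 4.11 RPKM) and duodenum (3.22 against 5.73 RPKM). Other measures moved with the numbers at each origin. Paneth cell markers summed to 6197 to 45827 RPKM in number 2 and 34070 to 125092 RPKM in number 1, stem cell markers to 67.5 to 376 RPKM and 403 to 1134 RPKM, and the share of reads in genes was 60.1% to 67.6% and 44.3% to 52.3%. Their part in these differences was not tested.

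**Figure D4:**
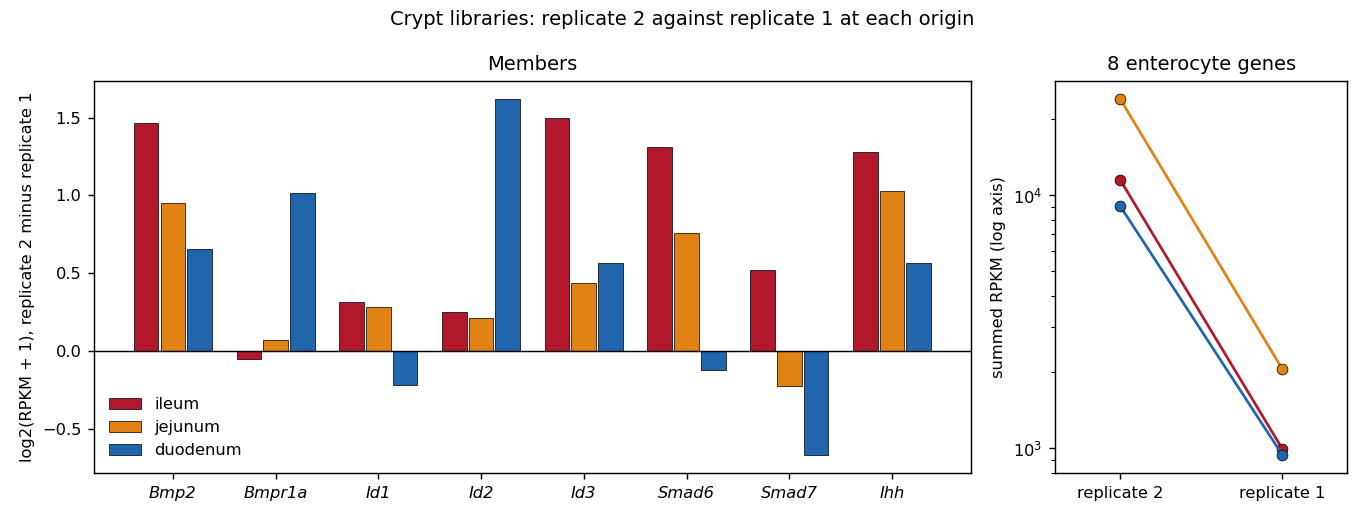
Left, the difference in log2(RPKM + 1) between crypt libraries numbered 2 and 1 at each origin for 8 genes, with bars from 0; right, summed RPKM of 8 enterocyte genes in the same libraries on a log axis. Bmp2, Id2, Id3 and Ihh lie above 0 at all 3 origins, and the enterocyte sum is 9049 to 23958 RPKM in number 2 against 940 to 2048 RPKM in number 1.

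The study's title asks whether location along the intestine is recorded in its adult stem cells, and the 10 genes were therefore compared between origins in the same model. None of the 8 tested genes was called for ileum over duodenum, where 0.676% of all genes were called, for jejunum over duodenum (0%) or for ileum over jejunum (0.0428%). With crypt libraries alone, ileum over duodenum called 0.0354% of 11297 genes and none of the 8. At an unadjusted limma p under 0.05, 2 of the 8 genes and 981 of all genes differed for ileum over duodenum, 1 and 338 for jejunum over duodenum, 0 and 513 for ileum over jejunum, and 1 and 484 for crypt ileum over crypt duodenum. A term for the crypt replicate numbers gave 303 calls over all genes for ileum over duodenum, against 79 without it, and 13, 31 and 37 in the other 3 comparisons, against 0, 5 and 4, with none of the 8 genes among them.

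Bmp2 and Id1 were the genes below an unadjusted 0.05 for ileum over duodenum. Bmp2 gave 0.94 ± 0.38 (log2, SE; limma adjusted p = 0.449); it was higher in ileum by 1.17 in villi and 1.47 in crypts and lower by -0.34 in organoids. Id1 gave -0.73 ± 0.30 (limma adjusted p = 0.474), with -1.44 in organoids, -0.12 in villi and -0.68 in crypts. Id1 was also the gene below 0.05 for jejunum over duodenum (-0.80 ± 0.30, limma adjusted p = 0.998), and its organoid levels were 26.0 RPKM in ileum, 20.1 RPKM in jejunum and 72.3 RPKM in duodenum. The difference of ileum over duodenum was itself compared between tissues, with crypts as the base, in a model with a mean for each of the 9 groups. This model takes the spread of the single organoid and villus libraries to be that of crypts. For organoids, Bmp2 gave -1.81 ± 1.04 (limma adjusted p = 1). For villi, Bmp4 gave 0.64 ± 0.25 and was not called. It passed the filter of this model only through the ileal villus library (0.580 RPKM, 14 reads) and the duodenal crypt library numbered 1 (0.476 RPKM, 5 reads). Both libraries enter this difference with a plus sign, so the filter favoured a positive value. Of 12597 genes, 0 were called for organoids and 0 for villi (both 0%), with 330 and 460 at an unadjusted p under 0.05.

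**Figure D5:**
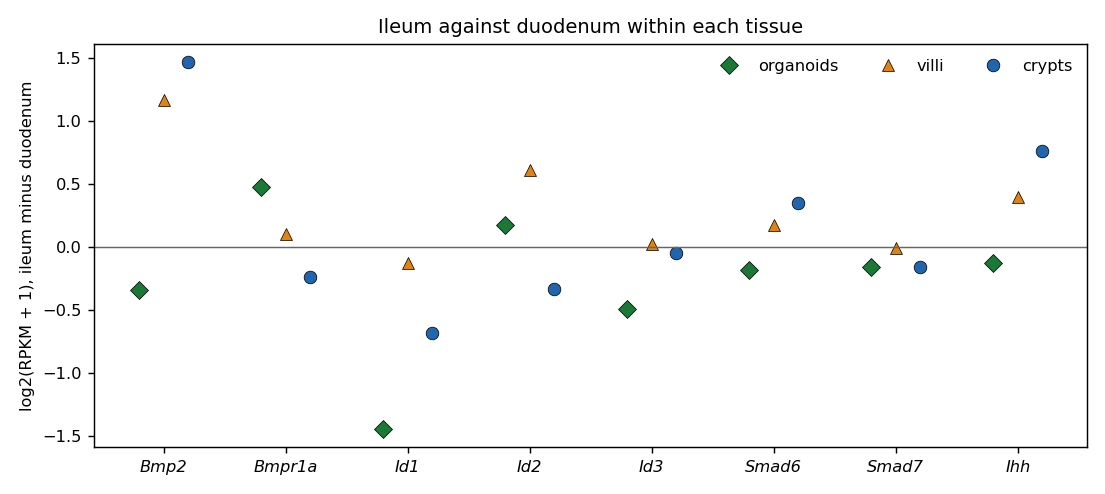
Difference in log2(RPKM + 1) between ileum and duodenum within organoids (diamonds), villi (triangles) and crypts (circles, mean of 2 libraries per origin) for 8 genes. Bmp2 is at 1.17 in villi and 1.47 in crypts but at -0.34 in organoids, and Id1 is below 0 in all 3 tissues.

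For the 3 genes with the widest range of group means, the genes with the most similar pattern over the 12 libraries were looked up among 10033 tested genes with a mean of at least 1 RPKM. The measure was Pearson's r of log2(RPKM + 1), given as a description, since the points share tissue and depth. Nearest to Id3 were Agpat1 (r = 0.982), Arhgdia (0.977) and Sirt7 (0.977). Nearest to Smad7 were Zdhhc18 (0.984), Mib2 (0.983) and Nuak2 (0.981), and nearest to Id1 were Ube2m (0.959), Scand1 (0.952) and Arpc4 (0.930).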

How the data were processed

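Poly(A) RNA of the 12 libraries was selected with a poly(A) kit and an mRNA isolation kit, and 50-bp reads came from a SOLiD 4 sequencer, per the labels' protocols. Per the submitters' processing notes, the aligner was BWA and the build mm9. Tool versions, gene models and strand use were not stated in the sources at hand. The deposited values are RPKM per transcript, per the file headers, with 21247 transcripts; the longest transcript was kept per symbol. At least 99.9535% of the values of each library were whole reads within 0.02 of a read. Coordinates are printed as deposited (mm9); their first base may be numbered 0 or 1.

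A gene was tested when its RPKM matched 10 reads or more, at the median depth, in 3 libraries (2 for crypts alone, 1 for the model with 9 means), with at least 15 reads in total. The pseudocount was 1. Tests used limma 3.58.1 in R 4.3.3, checked on simulated data. The genes and lists were chosen with earlier results of these data known. Beside the 10 genes, the text names up to 3 genes per list with the smallest adjusted p, and the 3 most similar genes of the 3 members with the widest range.

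The labels number the crypt libraries 1 and 2. Deviations of equal numbers from the origin means correlated across 11297 genes with r = 0.789 (ileum with jejunum), 0.506 (ileum with duodenum) and 0.419 (jejunum with duodenum), so the numbers were taken to pair the samples and a replicate block was fitted beside the model without it. Alternatives were a pseudocount of 0.1, no filter, rescaling to reads in annotated genes or with TMM factors, limma-voom on recovered reads, the transcript with the highest mean RPKM, the block and leaving out each library; using crypt libraries numbered 1 or 2 alone was added after seeing the data.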

Additional observations from a re-analysis of the deposited data

Results flagged for a closer look

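Each of the 10 genes was checked for a library that stands apart from the others among the 6 crypt libraries; chance alone marks about 1 in 20 such groups. Bmp4 stood at 0.476 RPKM (5 reads) in the duodenal crypt library numbered 1, where the gap to the next library was 0.844 of the whole range, above the 95% critical value of Dixon's test. Id2 stood at 71.9 RPKM in the duodenal crypt library numbered 2, with a gap of 0.626 of the range on the same log2 scale, only just above that value. The cause was not tested in either case.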

How the results depend on the processing

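The organoid decreases of Id1, Id3, Smad6 and Smad7 against crypts and against villi, that of Ihh against villi, and the villus increase of Smad7 kept their direction and their call under all 21 alternatives. The calls of Id3, Smad6 and Ihh in villi and of Bmpr1a and Ihh in organoids did not. Of the 8 genes, 4 were called in villi against crypts, with 2 after rescaling to reads in annotated genes, 1 against crypt libraries numbered 2 alone, 6 against those numbered 1 alone, 5 with TMM factors, 5 by limma-voom, 3 of 10 with no filter, and 1 to 5 when 1 library was left out. Signs turned in values that were not called. For villi over crypts, Bmpr1a became 0.26 with TMM factors, 0.30 by limma-voom and 0.16 against crypt libraries numbered 1 alone, and ranged from -0.090 to 0.16 when 1 library was left out (0.16 without duodenal crypt replicate 2, 0.019 without the duodenal villus library). Id1 became 0.22 with TMM factors and 0.20 by limma-voom and ranged from -0.30 to 0.10 (0.10 without the duodenal villus library, 0.0054 without jejunal crypt replicate 2), and Bmp2 became -0.075 against crypt libraries numbered 2 alone. Bmp2 in organoids over crypts became 0.25 against crypt libraries numbered 1 alone and ranged from -0.80 to 0.053 (0.053 without the ileal organoid library). Id2 in organoids over villi ranged from -0.31 to 0.20 (0.20 and 0.083 without the jejunal organoid and the ileal villus library).

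The replicate block changed no call of the 8 genes. Among the other list genes it added those of Bmpr2 and Acvr2a in organoids and Smurf2 in villi, each against crypts. It also added Nbl1 for ileum over duodenum, at a log2 difference of 2.38 (limma adjusted p = 0.0364, against 0.127 without the block). Over all genes it moved calls to 303 for ileum over duodenum (79 without it), 13 for jejunum over duodenum (0), 31 for ileum over jejunum (5) and 37 for crypt ileum over crypt duodenum (4). In the same comparisons no filter gave 17 for ileum over duodenum, 0 for ileum over jejunum and 0 for crypts, limma-voom gave 150 for ileum over duodenum and 0 for crypts, and a pseudocount of 0.1 gave 9 for ileum over jejunum and 1 for crypts. Crypt libraries numbered 1 or 2 alone gave 119 and 159 for ileum over duodenum and 1 and 11 for jejunum over duodenum. With no filter the model with 9 means called 497 genes for villi and 362 for organoids. Leaving out 1 library gave 3461 to 6347 calls for organoids over crypts (3461 without the ileal organoid library), 38 to 99 for ileum over duodenum, 0 to 7 for jejunum over duodenum, 0 to 11 for ileum over jejunum and 0 to 3 for crypts. The cause of these moves was not tested. The planned edgeR test was not run, because the deposited unit is RPKM and not counts. Depth limits Bmp4 and Shh most, with at most 14 reads in any library.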
